A study of Mus musculus with 24 samples.

Results

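The genes described are 9 genes used to mark dendritic cells and Langerhans cells: Cd207, Cd209a, Flt3, Itgax, Xcr1, Clec9a, Zbtb46, Batf3 and Ccr7. They were taken by name, each matched 1 of the 39017 gene IDs counted, and all 9 were among the 16248 genes kept after a filter on low counts. RNA of whole dorsal skin from female C3H/HeJ mice gave 24 libraries in 4 groups of 6, at an age given as approximately 30 weeks. Alopecia areata (AA), an autoimmune loss of hair, was brought on in this strain by skin grafts. The study's methods describe AA as fully developed before the mice were used. The 8w off Tx group and the Systemic JAK1i group were AA mice fed Cmpd A, an inhibitor of the kinase JAK1, at about 100 mg/kg/day for 4 weeks. Systemic JAK1i skin was a biopsy from the live mouse at the end of dosing, and 8w off Tx skin was taken at termination 8 weeks later. By the study's methods both groups are the same 6 mice, but the letters of the libraries do not say which is which, so these 2 groups are not independent animals. AA and Healthy mice were followed for 12 weeks without JAK1 inhibitor, although the names of the AA libraries point to a vehicle. Each comparison with Systemic JAK1i also holds a difference in week and in the kind of sample, which cannot be told apart from the treatment. By the study's hair scores the treated mice still had some hair when dosing began, while the AA mice had none. They also had more hair than the AA mice 8 weeks after dosing. Comparisons of 8w off Tx or Systemic JAK1i with AA also hold these differences.

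Dendritic cells take up antigen in tissue, travel to the draining lymph node and present it to T cells. Langerhans cells are the resident population of the epidermis. They carry langerin (Cd207), depend on IL-34 made by keratinocytes, and are held in place by TGF-beta that is activated locally. The dermis holds conventional dendritic cells of type 1 (cDC1), which cross-present antigen to CD8 T cells and need the transcription factor BATF3, and of type 2 (cDC2), which need IRF4. The 9 genes cover these roles. Cd207 and Cd209a encode C-type lectins, the second a mouse relative of human DC-SIGN. Flt3 encodes the receptor for the growth factor that sustains dendritic cells. Zbtb46 encodes a transcription factor of the conventional lineage, and blood endothelium may also carry it. Itgax encodes CD11c, an integrin chain of dendritic cells that is also made by many macrophages. Xcr1, Clec9a and Batf3 mark or build cDC1, although T cells may also carry Batf3. Ccr7 encodes the receptor that guides mature dendritic cells, and also T cells, along CCL19 and CCL21.

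Library totals ran between 3444193 and 11233020 counts, with group medians of 5368864 in 8w off Tx, 6868294 in Systemic JAK1i, 4491580 in AA and 5665426 in Healthy. At this depth the rarest members rest on few reads, with 1 to 22 counts per library for Batf3 and 1 to 43 for Ccr7, and no member was at 0 in any library. Levels are given as CPM, the counts of a gene scaled to a common library size, with TMM factors applied. Differences are log2 fold changes with their standard errors from edgeR's quasi-likelihood test on all 24 libraries, and a gene was called at a Benjamini-Hochberg adjusted p below 0.05 over the 16248 genes. Since whole skin was sequenced, fewer cells of a type and less RNA per cell cannot be told apart. The summed skeletal muscle markers were 29414 and 31339 CPM in 8w off Tx libraries A and E, against 6742 to 19252 CPM in the other 4, and 256 and 225 CPM in Healthy libraries A and E, against 3089 to 17816 CPM in the other 4. Calls are therefore also given without these 4 libraries where they change. Healthy library B held the lowest value of its group for 7 of the 9 members, all but Itgax and Ccr7. Likewise, 8w off Tx library A and Systemic JAK1i library F each held the lowest value of their group for 6 members. These were all but Cd207, Itgax and Xcr1, and 8w off Tx library A had the fewest counts, 3444193.

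Compared per length of transcript within each group, Cd207 and Itgax led in turn. In 8w off Tx skin the highest median levels were 2.90 TPM for Itgax, 1.81 TPM for Cd207 and 1.66 TPM for Zbtb46. Systemic JAK1i skin was led by Cd207 at 10.1 TPM, with Zbtb46 at 3.79 TPM and Itgax at 2.59 TPM. AA skin was led by Itgax at 4.57 TPM and Cd207 at 3.87 TPM. Healthy skin had Cd207 at 9.40 TPM, Cd209a at 5.66 TPM and Zbtb46 at 4.09 TPM. Within its group Cd209a ranked 8 of the 9 in 8w off Tx, 5 in Systemic JAK1i, 8 in AA and 2 in Healthy skin. TPM levels were compared between genes of 1 group and not between groups, because the median of all genes differed between groups on that scale.

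**Figure D1:**
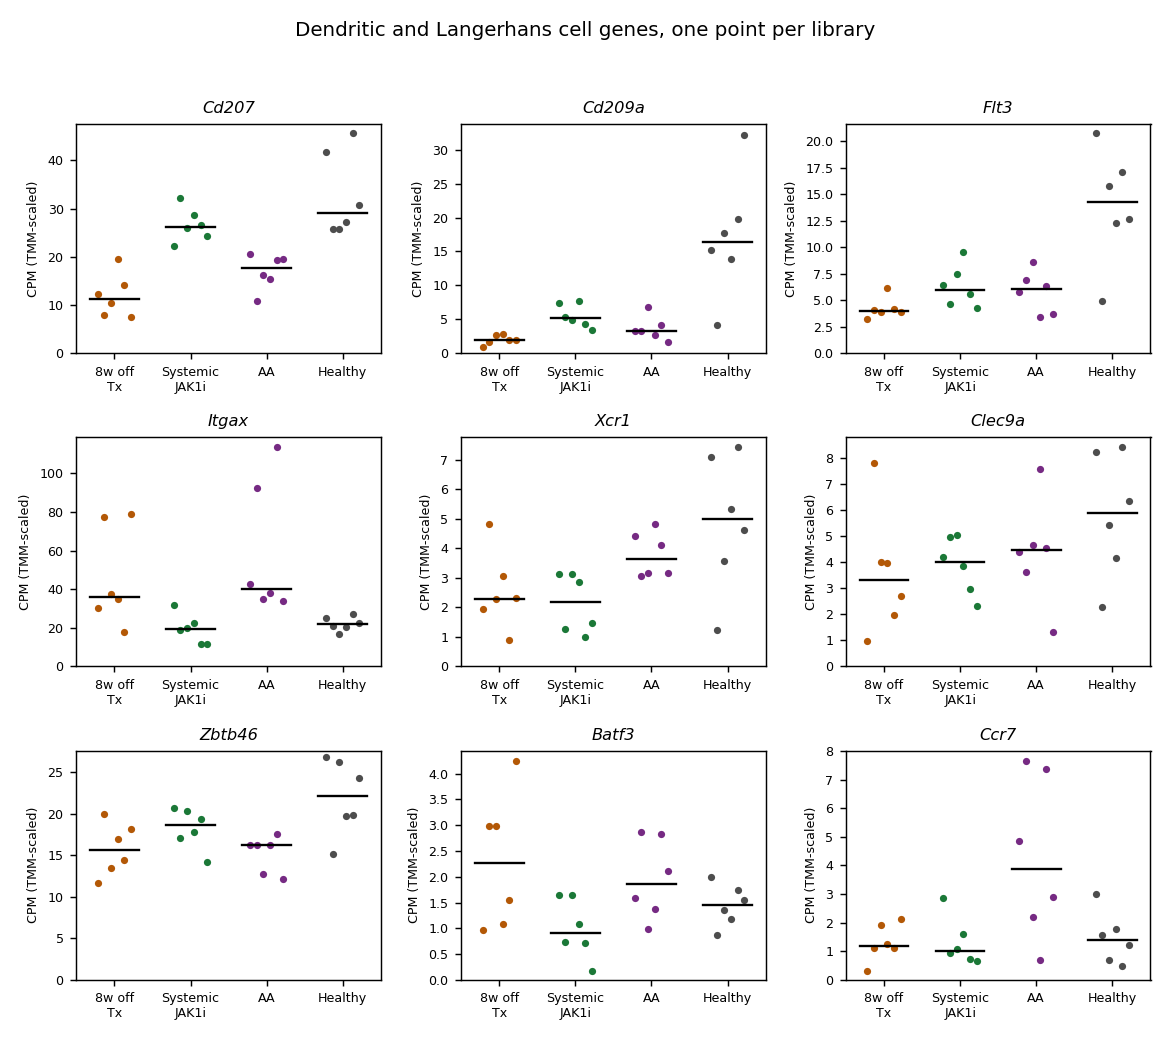
CPM after TMM scaling on the vertical axis for the 9 genes, with 1 point per library, a line at the median and 6 libraries in each of 8w off Tx, Systemic JAK1i, AA and Healthy. Cd207, Cd209a and Flt3 have their highest medians in Healthy skin at 28.996, 16.4 and 14.3 CPM, while the Itgax median is highest in AA skin at 40.3 CPM.

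AA skin was set against Healthy skin to ask how the resident antigen-presenting cells differ in established disease. Cd207, Cd209a, Flt3 and Zbtb46 were lower in AA skin and Itgax and Ccr7 were higher, so 6 of the 9 members were called, where 40.2% of all genes tested were called in this comparison. The split was 2 higher, where 20.9% of all genes were, and 4 lower, where 19.3% of all genes were. The median of the 9 log2 fold changes was −0.40, against 0.00 over all genes. Xcr1, Clec9a and Batf3, the cDC1 genes, did not pass the test.

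Cd209a had the largest difference of the 9. Its lowest, median and highest values were 1.59, 3.27 and 6.85 CPM in AA libraries, against 4.22, 16.4 and 32.2 CPM in Healthy libraries. The groups overlapped only through AA library C at 6.85 CPM and Healthy library B at 4.22 CPM. Cd209a was 4.71-fold lower in AA (log2 fold change −2.24 ± 0.35 SE, edgeR adjusted p = 3.6e-05).

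Flt3 followed at a lesser size. Its lowest, median and highest values were 3.44, 6.04 and 8.57 CPM in AA libraries, against 4.92, 14.3 and 20.8 CPM in Healthy libraries. Healthy library B was again the only one of its group inside the AA range. Flt3 was 2.40-fold lower in AA (−1.26 ± 0.27 SE on the log2 scale, edgeR adjusted p = 0.0008).

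Cd207 separated the groups fully. Langerin RNA was at 10.9, 17.7 and 20.5 CPM (lowest, median, highest) in AA libraries, against 25.8, 28.996 and 45.7 CPM in Healthy libraries, so every AA library lay below every Healthy library. The difference was 1.93-fold lower in AA (log2 fold change −0.95 ± 0.20 SE, edgeR adjusted p = 0.00068). Healthy libraries A and E, those with little muscle RNA, had the 2 highest Cd207 values at 41.8 and 45.7 CPM. Without the 4 libraries named above the log2 fold change was −0.69 with an adjusted p of 0.0137.

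Zbtb46 moved least among the called members, at 12.2, 16.2 and 17.6 CPM in AA libraries against 15.1, 22.1 and 26.9 CPM in Healthy libraries. Healthy library B was the one Healthy library inside the AA range. Its log2 fold change was −0.53 ± 0.15 SE (edgeR adjusted p = 0.0056).

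Itgax moved the other way. CD11c RNA was at 33.8, 40.3 and 114 CPM in AA libraries, against 16.7, 21.9 and 27.05 CPM in Healthy libraries, with no overlap. AA libraries B and E stood high at 92.2 and 114 CPM, and the other 4 lay between 33.8 and 42.6 CPM. Itgax was 2.68-fold higher in AA (log2 fold change 1.42 ± 0.35 SE, edgeR adjusted p = 0.0027).

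Ccr7 was at 0.689, 3.89 and 7.65 CPM in AA libraries, against 0.496, 1.39 and 2.99 CPM in Healthy libraries. AA libraries A, B and E were above every Healthy library, AA libraries C, D and F were not. On the log2 scale the difference was 1.52 ± 0.47 SE (edgeR adjusted p = 0.011). All 6 calls were kept in each of the 12 fits that left out 1 library of the comparison, and without the 4 libraries that differ in muscle RNA.

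The cDC1 genes overlapped widely. Xcr1, the receptor for XCL1, was at 3.06, 3.66 and 4.82 CPM in AA libraries against 1.23, 4.99 and 7.44 CPM in Healthy libraries (log2 fold change −0.34 ± 0.35 SE, edgeR adjusted p = 0.46). Clec9a, which binds actin exposed by dead cells, was at 1.32, 4.49 and 7.57 CPM in AA libraries against 2.28, 5.89 and 8.44 CPM in Healthy libraries (−0.40 ± 0.37 SE, edgeR adjusted p = 0.40). Batf3 was at 0.979, 1.85 and 2.87 CPM in AA libraries against 0.878, 1.45 and 1.99 CPM in Healthy libraries (0.42 ± 0.40 SE, edgeR adjusted p = 0.41). For these 3 genes no difference was detected, which does not show equal levels. The part of low counts and of the spread between libraries in this was not tested. Of the Clec9a exon bases 5.59% lie under Clec1b on the same strand, so part of its reads cannot be assigned with certainty.

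Promoter sequences are shown for the 3 members with the largest falls in AA skin and for Itgax, the member that was higher with no overlap, so that their regions around the start of transcription can be compared. They come from RefSeq on GRCm38.p6, where 8 of the 9 members were matched, and run from 250 bases before to 50 bases after the start, 5′ to 3′ on the strand of the gene. The positions are chr8:3748935-3749234 on the minus strand for Cd209a, chr5:147400440-147400739 on the minus strand for Flt3, chr6:83677808-83678107 on the minus strand for Cd207 and chr7:128129300-128129599 on the plus strand for Itgax. Capitals mark the only motif match among these 4.
Cd209a: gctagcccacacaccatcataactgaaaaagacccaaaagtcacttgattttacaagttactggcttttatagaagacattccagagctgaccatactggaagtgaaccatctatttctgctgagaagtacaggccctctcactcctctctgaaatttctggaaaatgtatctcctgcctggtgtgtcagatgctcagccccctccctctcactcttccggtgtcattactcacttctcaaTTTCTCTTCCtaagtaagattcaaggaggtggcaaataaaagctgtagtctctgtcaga
Flt3: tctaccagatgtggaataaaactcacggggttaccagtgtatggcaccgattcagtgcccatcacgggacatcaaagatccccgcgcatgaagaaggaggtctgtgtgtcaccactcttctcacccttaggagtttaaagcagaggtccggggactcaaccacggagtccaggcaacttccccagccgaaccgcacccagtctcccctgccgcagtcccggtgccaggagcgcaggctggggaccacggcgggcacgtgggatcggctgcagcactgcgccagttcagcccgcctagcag
Cd207: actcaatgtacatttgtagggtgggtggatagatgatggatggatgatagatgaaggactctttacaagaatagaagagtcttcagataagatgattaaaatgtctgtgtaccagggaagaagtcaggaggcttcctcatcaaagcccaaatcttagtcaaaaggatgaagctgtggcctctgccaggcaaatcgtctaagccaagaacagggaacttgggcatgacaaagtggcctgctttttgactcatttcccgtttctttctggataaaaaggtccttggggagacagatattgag
Itgax: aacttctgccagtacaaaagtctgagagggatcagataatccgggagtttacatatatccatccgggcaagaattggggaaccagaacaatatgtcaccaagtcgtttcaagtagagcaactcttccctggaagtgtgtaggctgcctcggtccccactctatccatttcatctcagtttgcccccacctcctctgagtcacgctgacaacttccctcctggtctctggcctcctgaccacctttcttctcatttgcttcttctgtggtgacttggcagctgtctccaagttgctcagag
Both strands were searched for the GAS motif TTCNNNGAA bound by STAT dimers, the ISRE-type motif GAAANNGAAA, the ETS-IRF composite GGAANNGAAA and the PU.1 motif GAGGAAGT. They occur in 8.3%, 3.44%, 2.72% and 3.2% of 32851 promoters of the same length, in that order. The capitals in the Cd209a promoter are an ETS-IRF composite on the opposite strand that begins 9 bases before the start. The Batf3 promoter holds a GAS match that begins 239 bases before its start, and no other match was found in the 8 promoters. These matches are descriptions of letters and no binding was measured.

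The other Cd209 genes lie beside Cd209a on chromosome 8 and encode related lectins, and 4 of the 6 were lower in AA skin, with 0 higher and a median log2 fold change of −1.71. Cd209c was at 0.574, 1.94 and 4.65 CPM in AA libraries, against 2.28, 12.9 and 16.3 CPM in Healthy libraries (log2 fold change −2.36 ± 0.41 SE, edgeR adjusted p = 9.3e-05). Cd209d, Cd209b and Cd209e were lower by −1.89 ± 0.40, −1.67 ± 0.46 and −1.76 ± 0.44 on the log2 scale, with the last of these and Cd209b named after their values were seen. Cd209f had −0.30 ± 0.45 and Cd209g −0.44 ± 0.39, and neither passed. Of the 76-base windows of Cd209f, 23.4% also occur in Cd209g, so these 2 genes may share reads. Of the windows of Cd209c, 8.74% also occur in other genes, whereas no window of Cd209a does. On log2(TPM + 0.1) that was not centred, Cd209c had −0.69 in AA against Healthy libraries and was not called (limma adjusted p = 0.0549).

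**Figure D2:**
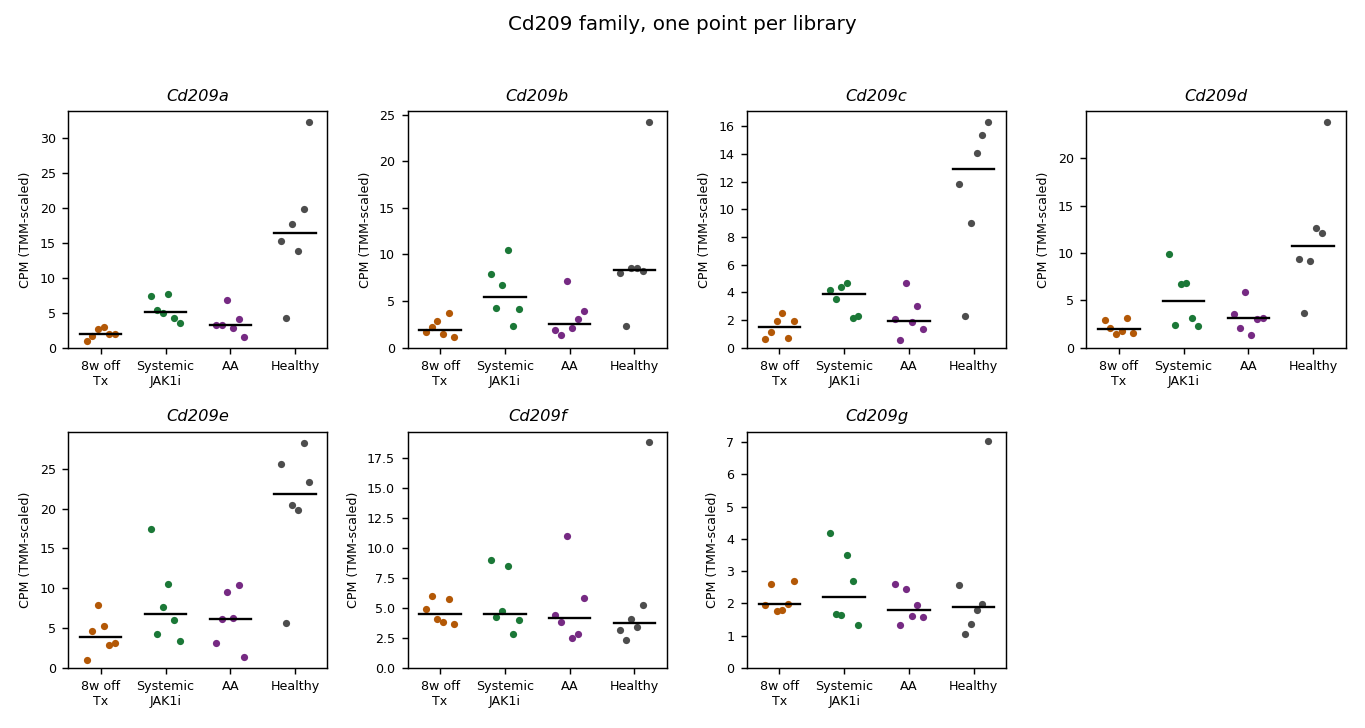
CPM after TMM scaling on the vertical axis for the 7 Cd209 genes, 1 point per library with a line at the median, in 8w off Tx, Systemic JAK1i, AA and Healthy skin. Cd209a, Cd209b, Cd209c, Cd209d and Cd209e have their highest median in Healthy skin, with Healthy library B low, and Cd209f and Cd209g show medians that lie close together, between 3.72 and 4.50 CPM and between 1.78 and 2.18 CPM.

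Other genes of the dendritic cell programme moved in both directions in AA skin. Of 10 further cDC1 genes 3 were higher and 1 lower (median −0.22), among them Nfil3, a transcription factor upstream of cDC1 (1.18 ± 0.28 SE on the log2 scale, edgeR adjusted p = 0.002). Itgae, which encodes CD103 on dermal cDC1 and on resident T cells, was higher by 0.94 ± 0.26 (edgeR adjusted p = 0.0055). Of 8 cDC2 and dermal dendritic cell genes tested 1 was higher and 2 lower (median −0.12). The lower ones were Irf4 at −0.73 ± 0.18 (edgeR adjusted p = 0.0025) and Esam at −1.35 ± 0.16 (edgeR adjusted p = 2e-06), a gene that endothelium also expresses. Of 7 genes associated with plasmacytoid dendritic cells 3 were higher and 1 lower (median 0.07), led by Irf7 at 2.66 ± 0.32 and Bst2 at 2.80 ± 0.34, which interferons induce in many cell types.

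Genes that hold Langerhans cells in the epidermis or define them gave 5 higher and 2 lower of 11 (median 0.29). Il34, the keratinocyte cytokine on which these cells depend, was at 12.2, 23.1 and 30.9 CPM in AA libraries against 37.0, 51.0 and 56.3 CPM in Healthy libraries, with no overlap (log2 fold change −1.14 ± 0.22 SE, edgeR adjusted p = 0.00031). Itgb6, which encodes the keratinocyte integrin chain that activates TGF-beta, was at 33.5, 40.3 and 52.6 CPM in AA libraries against 10.54, 18.1 and 27.3 CPM in Healthy libraries, again with no overlap (1.15 ± 0.18 SE, edgeR adjusted p = 2.9e-05). Cd207 and Il34 were thus both lower while Itgb6 was higher.

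Maturation and migration genes other than Ccr7 gave 6 higher and 1 lower of 14 tested (median 0.31). The 1 lower gene was Ackr4, a scavenger of the CCR7 ligands CCL19 and CCL21, at 10.6, 14.3 and 16.3 CPM in AA libraries against 39.9, 52.7 and 56.3 CPM in Healthy libraries (log2 fold change −1.87 ± 0.16 SE, edgeR adjusted p = 7.7e-08). Cd274, which encodes the checkpoint ligand PD-L1, was higher by 2.00 ± 0.32 (edgeR adjusted p = 4.8e-05). Ccl17, a chemokine of mature dendritic cells named here after its values were seen, was higher by 4.10 ± 0.90 (edgeR adjusted p = 0.00035), at 0.734 to 31.0 CPM in AA libraries against 0.343 to 1.28 CPM in Healthy libraries. Ligands and receptors that sustain dendritic cells gave 2 higher and 0 lower of 6 (median 0.46), namely the lymphotoxin genes Lta (2.90 ± 0.56) and Ltb (1.27 ± 0.30). Of 7 recruiting chemokines and receptors 4 were higher and 1 lower (median 1.503), including Ccl5 (2.58 ± 0.64). Of 10 genes of MHC class II presentation 3 were higher and 1 lower (median 0.45), with Ctss, the protease that trims the invariant chain, at 1.93 ± 0.50 and H2-Oa, a modulator of peptide loading, at −1.24 ± 0.35. The H2-Oa call was lost without the 4 libraries that differ in muscle RNA (edgeR adjusted p = 0.0537).

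**Figure D3:**
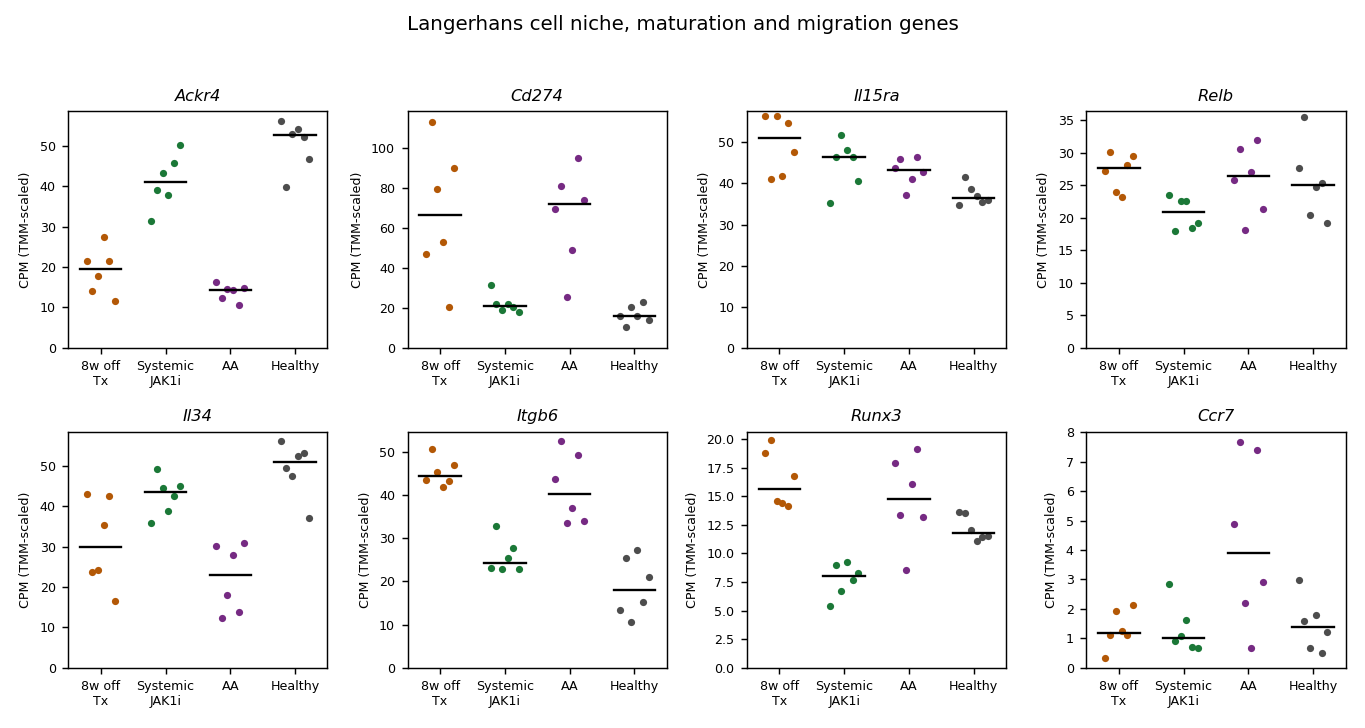
CPM after TMM scaling on the vertical axis for 8 genes of the Langerhans cell niche, maturation and migration, 1 point per library with a line at the median, in 8w off Tx, Systemic JAK1i, AA and Healthy skin. Ackr4 and Il34 are lower in AA than in Healthy skin and Itgb6 is higher, each with no overlap, and Ackr4 has medians of 19.6, 41.2, 14.3 and 52.7 CPM in that order of groups.

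Markers of other cells moved with these differences. Monocyte and macrophage markers summed to 503, 710 and 1056 CPM (lowest, median, highest) in AA libraries against 308, 452 and 813 CPM in Healthy libraries, with 7 of 13 higher and 1 lower. T cell markers summed to 27.7, 65.5 and 123 CPM in AA libraries against 16.2, 28.3 and 35.2 CPM in Healthy libraries, with 3 of 7 higher, and Cd8b1 at 0 in all Healthy libraries. Blood endothelium markers ran the other way, at 57.1, 106 and 139 CPM in AA libraries against 160, 252 and 356 CPM in Healthy libraries, with 6 of 6 lower. Of 5 dermal fibroblast markers 2 were lower, and the sums were 1893 to 8438 CPM in AA libraries against 2465 to 6926 CPM in Healthy libraries. Hair shaft markers were higher for 4 of 4, at 444 to 1916 CPM in AA libraries against 0.176 to 68.3 CPM in Healthy libraries. NK cell markers summed to 6.87 to 16.5 CPM in AA libraries against 2.37 to 8.68 CPM in Healthy libraries, with 1 of the 2 tested higher. B and plasma cell markers summed to 2.91 to 25.9 CPM in AA libraries against 0.680 to 9.77 CPM in Healthy libraries, with the 1 tested, Jchain, higher and Ms4a1 at 0 in all Healthy libraries. Keratinocyte markers had 2 of 5 higher and sums that overlapped widely, at 7263 to 14262 CPM in AA libraries against 6095 to 14990 CPM in Healthy libraries. The part of these cells in the members' differences was not tested.

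Set against Ptprc (CD45, on all leukocytes) in the same library, Cd207 and Cd209a were again lower and Itgax higher in AA skin. Ptprc itself did not pass in AA against Healthy libraries (0.37 on the log2 scale, edgeR adjusted p = 0.27). The median ratio of Cd207 to Ptprc was 0.155 in AA and 0.345 in Healthy libraries, and that of Cd209a was 0.0246 in AA and 0.161 in Healthy libraries. For Itgax the ratio was 0.431 in AA and 0.227 in Healthy libraries. These ratios are descriptions with no test.

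**Figure D4:**
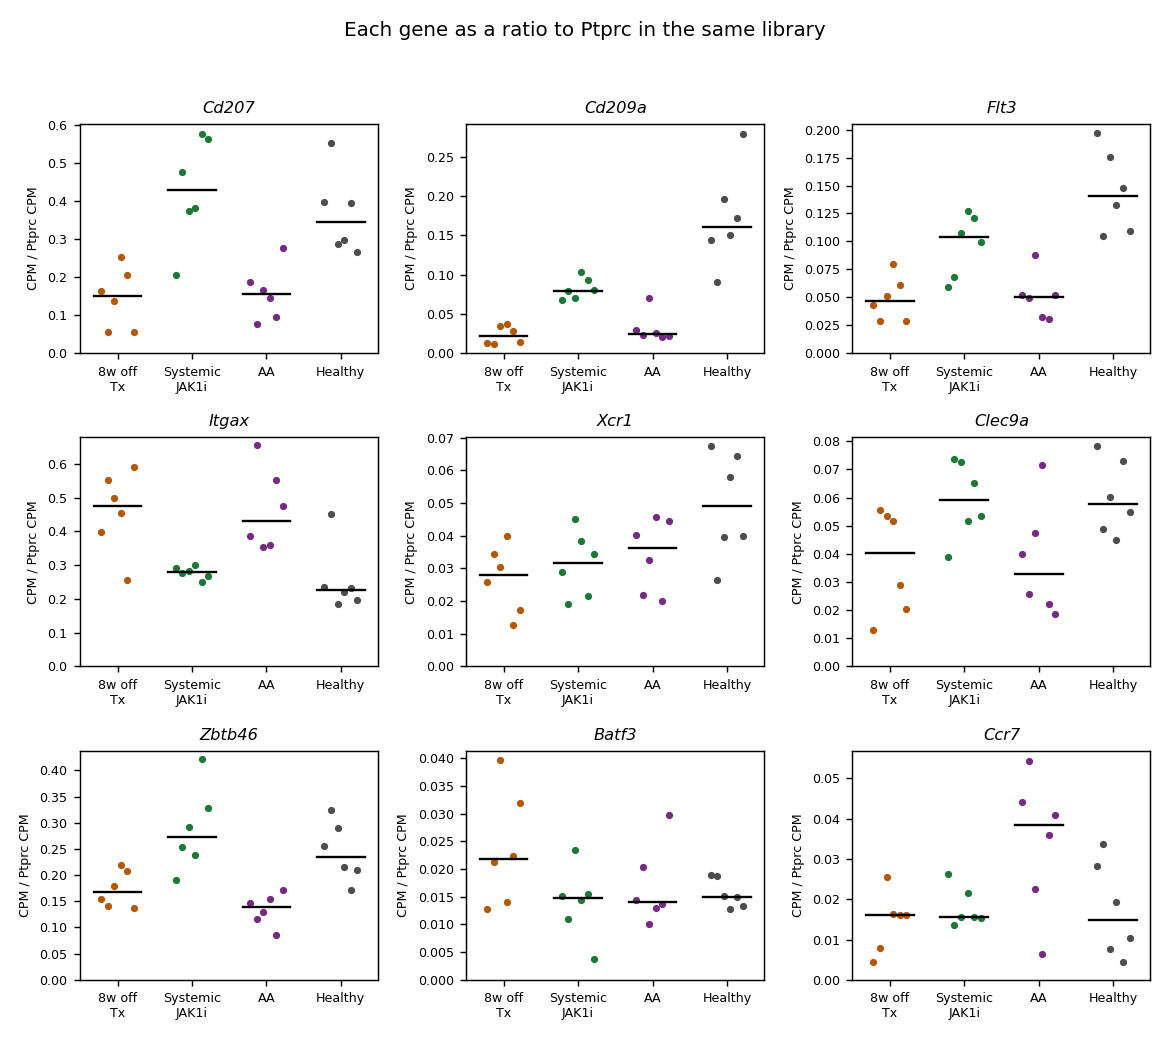
Ratio of the CPM of each of the 9 genes to the CPM of Ptprc in the same library on the vertical axis (no unit), 1 point per library with a line at the median, in 8w off Tx, Systemic JAK1i, AA and Healthy skin. The Cd209a ratio has medians of 0.0217, 0.0796, 0.0246 and 0.161 in that order, so the Systemic JAK1i median lies between those of AA and Healthy. The median Cd207 ratio in Systemic JAK1i, at 0.429, is not below that of Healthy at 0.345.

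Systemic JAK1i skin was set against AA skin, which came from other mice, to ask which of these genes differed at the end of dosing. Itgax and Ccr7 were lower in Systemic JAK1i and Cd207 was higher, so 3 of the 9 members were called, where 47.7% of all genes tested were called. The split was 1 higher, where 22.9% of all genes were, and 2 lower, where 24.8% of all genes were, and the median of the 9 was −0.17 against −0.01 over all genes. Cd209a and Flt3, which had the largest falls in AA skin, did not pass.

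Itgax was at 11.5, 19.3 and 31.6 CPM in Systemic JAK1i libraries, against 33.8, 40.3 and 114 CPM in AA libraries. Every Systemic JAK1i library lay below every AA library. The log2 fold change was −1.61 ± 0.35 SE (edgeR adjusted p = 0.00075), 3.06-fold lower in Systemic JAK1i. Ptprc was lower too, by −0.84 on the log2 scale, and the Itgax ratio to Ptprc had medians of 0.281 in Systemic JAK1i and 0.431 in AA libraries.

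Ccr7 was at 0.662, 1.01 and 2.84 CPM in Systemic JAK1i libraries, against 0.689, 3.89 and 7.65 CPM in AA libraries. AA library D, at 0.689 CPM, lay among the Systemic JAK1i libraries. For Ccr7 the log2 fold change was −1.70 ± 0.46 SE (edgeR adjusted p = 0.0039).

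Cd207 was at 22.2, 26.2 and 32.2 CPM in Systemic JAK1i libraries, against 10.9, 17.7 and 20.5 CPM in AA libraries, with no overlap. Its log2 fold change was 0.65 ± 0.20 SE (edgeR adjusted p = 0.011), 1.56-fold higher in Systemic JAK1i. All 3 calls were kept in each of the 12 fits without 1 library.

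Cd209a was at 3.47, 5.12 and 7.73 CPM in Systemic JAK1i libraries, against 1.59, 3.27 and 6.85 CPM in AA libraries, so most of the 2 ranges was shared. Its log2 fold change of 0.61 ± 0.36 SE did not pass (edgeR adjusted p = 0.17). Flt3 was at 4.30, 5.999 and 9.53 CPM in Systemic JAK1i libraries, against 3.44, 6.04 and 8.57 CPM in AA libraries (0.14 ± 0.28 SE, edgeR adjusted p = 0.69). Zbtb46 had 0.26 ± 0.15, Clec9a −0.17 ± 0.37 and Xcr1 −0.79 ± 0.37, with edgeR adjusted p of 0.15, 0.73 and 0.078. Batf3, at 0.165, 0.907 and 1.65 CPM in Systemic JAK1i libraries against 0.979, 1.85 and 2.87 CPM in AA libraries, had −0.93 ± 0.40 (edgeR adjusted p = 0.056). It passed in the fits without AA library C, without Systemic JAK1i library A or without Systemic JAK1i library C.

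The supporting lists had the following calls in Systemic JAK1i against AA skin. MHC class II presentation had 0 higher and 9 lower of 10, recruiting chemokines and receptors 0 higher and 5 lower of 7, and growth factors and receptors 0 higher and 5 lower of 6. Maturation and migration had 2 higher and 7 lower of 14, with Cd274 at −1.58 on the log2 scale and Ccl17 at −4.51 ± 0.91, while Ackr4 was higher by 1.58. In the Langerhans cell niche 1 was higher and 5 lower of 11. The 1 higher gene was Il34 (0.94, edgeR adjusted p = 0.0015), at 35.9, 43.5 and 49.3 CPM in Systemic JAK1i libraries against 12.2, 23.1 and 30.9 CPM in AA libraries, and Itgb6 was lower by −0.69 (edgeR adjusted p = 0.0022). The cDC1 genes gave 1 higher and 3 lower of 10, with Nfil3 at −1.01 and Itgae at −1.50. The cDC2 list had 1 higher and 1 lower of 8, with Irf4 at 0.40 not passing (edgeR adjusted p = 0.07) except without AA library B or E or Systemic JAK1i library F, where its adjusted p was as low as 0.0338. In the plasmacytoid list 2 were higher and 3 lower of 7, with Irf7 at −3.61 and Bst2 at −3.04. Of the other 6 Cd209 genes 0 were called (median 0.57), with Cd209c at 0.69 (edgeR adjusted p = 0.19) and Cd209d at 0.73 (edgeR adjusted p = 0.15).

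In the same comparison 6 of 7 T cell markers were lower, summing to 17.2 to 33.2 CPM in Systemic JAK1i libraries against 27.7 to 123 CPM in AA libraries. Monocyte and macrophage markers were lower for 6 of 13, at 353 to 998 CPM in Systemic JAK1i libraries against 503 to 1056 CPM in AA libraries. Endothelium markers were higher for 6 of 6, at 213 to 269 CPM in Systemic JAK1i libraries against 57.1 to 139 CPM in AA libraries. Hair shaft markers were lower for 4 of 4, at 1.43 to 41.4 CPM in Systemic JAK1i libraries against 444 to 1916 CPM in AA libraries. Keratinocyte markers were lower for 2 of 5, NK cell markers lower for 2 of the 2 tested, and fibroblast markers higher for 2 of 5 and skeletal muscle markers for 1 of 6. Their part in the members' differences was not tested.

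**Figure D5:**
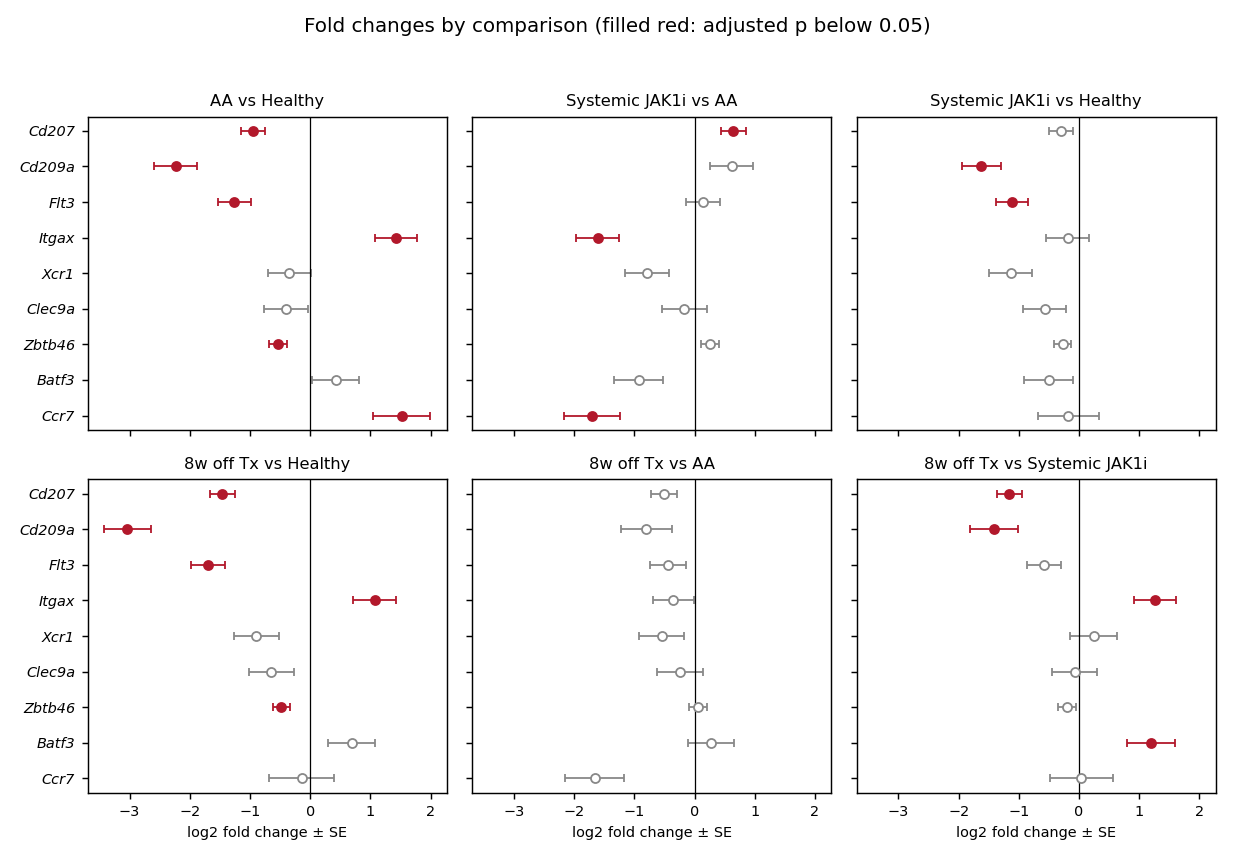
Log2 fold changes of the 9 genes with bars of 1 standard error, by comparison, from edgeR's fit of 24 libraries. Cd209a is at −2.24 for AA against Healthy, at 0.61 for Systemic JAK1i against AA and at −1.62 for Systemic JAK1i against Healthy, whereas Itgax is at 1.42, −1.61 and −0.19 in the same comparisons.

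Systemic JAK1i skin was then set against Healthy skin to ask which genes differed from it at the end of dosing. Cd209a and Flt3 were lower in Systemic JAK1i and no member was higher, so 2 of the 9 were called, where 1.05% of all genes tested were called and 0.535% were lower. The median of the 9 log2 fold changes was −0.51, against −0.01 over all genes. The count over all genes rested on single libraries: it was 83 higher and 87 lower, but 373 and 331 without Healthy library F, as few as 23 and 26 without Healthy library A, and 9 and 8 without the 4 libraries that differ in muscle RNA. Leaving out Healthy library C or E, or Systemic JAK1i library A, B, C, D or E, also lowered it by more than 1.5 times.

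Cd209a was at 3.47, 5.12 and 7.73 CPM in Systemic JAK1i libraries, against 4.22, 16.4 and 32.2 CPM in Healthy libraries. Healthy library B at 4.22 CPM was the only Healthy library inside the Systemic JAK1i range, and the next lowest was library D at 13.8 CPM. The log2 fold change was −1.62 ± 0.33 SE (edgeR adjusted p = 0.019), 3.08-fold lower in Systemic JAK1i. It was called in each of the 12 fits without 1 library, with adjusted p between 0.00164 and 0.0497. Without the 4 libraries that differ in muscle RNA the log2 fold change was −1.61 with an adjusted p of 0.0843, and the call was lost.

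Flt3 was at 4.30, 5.999 and 9.53 CPM in Systemic JAK1i libraries, against 4.92, 14.3 and 20.8 CPM in Healthy libraries. Healthy library B was again the one within the Systemic JAK1i range. The log2 fold change of −1.12 ± 0.26 SE was close to the threshold (edgeR adjusted p = 0.041). The call was lost in 9 of 12 fits without 1 library, namely without Healthy library A, C, D or E or Systemic JAK1i library A, B, C, E or F, with adjusted p as high as 0.111 without Healthy library A. It was also lost without the 4 libraries that differ in muscle RNA (−0.83, adjusted p = 0.252).

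Cd207, at 22.2 to 32.2 CPM in Systemic JAK1i libraries against 25.8 to 45.7 CPM in Healthy libraries, had −0.30 ± 0.19 and did not pass (edgeR adjusted p = 0.45). Itgax, at 11.5 to 31.6 CPM in Systemic JAK1i libraries against 16.7 to 27.05 CPM in Healthy libraries, had −0.19 ± 0.36 (edgeR adjusted p = 0.85). Xcr1 had the largest log2 fold change among the members not called, at −1.14 ± 0.36 (edgeR adjusted p = 0.11), with 0.998, 2.18 and 3.14 CPM in Systemic JAK1i libraries against 1.23, 4.99 and 7.44 CPM in Healthy libraries. It passed without Healthy library B (adjusted p = 0.0369). Clec9a had −0.57 ± 0.36, Zbtb46 −0.27 ± 0.14, Batf3 −0.51 ± 0.41 and Ccr7 −0.18 ± 0.51, with edgeR adjusted p of 0.43, 0.33, 0.56 and 0.91.

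Of the genes in the 9 supporting lists only Cd209c and Runx3 were called in this comparison. On TPM centred on each library's median neither call was kept, with Cd209c at −0.39 and Runx3 at −0.65. Cd209c was at 2.14, 3.84 and 4.68 CPM in Systemic JAK1i libraries, against 2.28, 12.9 and 16.3 CPM in Healthy libraries (log2 fold change −1.67 ± 0.37 SE, edgeR adjusted p = 0.031), and its call was lost without Systemic JAK1i library B, C, E or F or Healthy library A, D or E, with adjusted p up to 0.0803, and without the 4 libraries that differ in muscle RNA (0.136). Runx3, a transcription factor that Langerhans cells need and that CD8 T cells also express, was at 5.39, 7.98 and 9.26 CPM in Systemic JAK1i libraries against 11.1, 11.8 and 13.6 CPM in Healthy libraries, with no overlap (−0.66 ± 0.16 SE, edgeR adjusted p = 0.045). The Runx3 call was lost in 10 of 12 fits without 1 library, all but those without Systemic JAK1i library D and Healthy library F, with adjusted p up to 0.109, and without the 4 libraries (0.177). Cd209d had −1.16 (adjusted p = 0.11), Tlr11 −1.10 (0.11), Wdfy4, which cDC1 need for cross-presentation, −0.80 (0.12), Mgl2, a lectin of dermal cDC2, −0.98 (0.19) and Irf4 −0.33 (0.34), all by edgeR and none called. Nor were Xcl1, the ligand of XCR1 (−1.74, 0.078, but 0.0433 without Healthy library F), Ccr6 (−0.74, 0.20), Csf2ra (−0.54, 0.31), Ltbr (−0.27, 0.22), Relb (−0.29, 0.29), Il15ra (0.27, 0.15) and Cd24a (0.44, 0.12), with the log2 fold change and the edgeR adjusted p of each in parentheses. The MHC class II genes Cd74 and Ciita had −0.60 and −0.51, and the plasmacytoid list's Irf7 and Cox6a2 −0.94 and 0.99, none of them called. Endothelium, monocyte and macrophage, fibroblast, keratinocyte, NK and hair shaft markers had 0 called here. Of 7 T cell, 5 B and plasma cell and 6 skeletal muscle markers 1 each was higher, namely Cd8a, Jchain and Myh1, and their part was not tested.

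The 8w off Tx libraries were set against Healthy libraries to ask where the genes stood after withdrawal. Cd209a, Flt3, Cd207 and Zbtb46 were lower in 8w off Tx and Itgax was higher, so 5 of the 9 were called, where 32.7% of all genes tested were called. The split was 1 higher, where 16.9% of all genes were, and 4 lower, where 15.7% of all genes were, and the median of the 9 was −0.65 against 0.01 over all genes. This comparison and that of AA share the Healthy libraries.

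Cd209a was at 0.973, 1.96 and 2.88 CPM in 8w off Tx libraries, against 4.22, 16.4 and 32.2 CPM in Healthy libraries, and here even Healthy library B lay above all 6. On the log2 scale Cd209a differed by −3.04 ± 0.39 SE (edgeR adjusted p = 6.5e-06), 8.20-fold lower in 8w off Tx. Flt3 was at 3.24, 3.98 and 6.12 CPM in 8w off Tx libraries, with library D alone above Healthy library B at 4.92 CPM, and its log2 fold change was −1.70 ± 0.28 SE (edgeR adjusted p = 0.00011).

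Cd207 was at 7.53, 11.3 and 19.4 CPM in 8w off Tx libraries, against 25.8, 28.996 and 45.7 CPM in Healthy libraries, with no overlap. It was 2.75-fold lower in 8w off Tx (log2 fold change −1.46 ± 0.21 SE, edgeR adjusted p = 2.5e-05). Zbtb46 was at 11.7, 15.7 and 19.9 CPM in 8w off Tx libraries, against 15.1, 22.1 and 26.9 CPM in Healthy libraries (−0.48 ± 0.15 SE, edgeR adjusted p = 0.015). Without the 4 libraries that differ in muscle RNA, Zbtb46 had −0.32 and was no longer called (adjusted p = 0.171).

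Itgax was at 17.7, 36.2 and 78.7 CPM in 8w off Tx libraries, against 16.7, 21.9 and 27.05 CPM in Healthy libraries. Libraries B and F stood high at 77.7 and 78.7 CPM, and library E at 17.7 CPM lay within the Healthy range. The log2 fold change of 1.07 ± 0.35 SE (edgeR adjusted p = 0.024) was no longer called without 8w off Tx library B (adjusted p = 0.0779), without 8w off Tx library F (0.0787) or without Healthy library C (0.054). Monocyte and macrophage markers summed to 374, 449 and 882 CPM in 8w off Tx libraries against 308, 452 and 813 CPM in Healthy libraries, with 5 of 13 higher and 1 lower.

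Xcr1 had −0.89 ± 0.37 (edgeR adjusted p = 0.063) and passed without 8w off Tx library B (0.0227) or Healthy library B (0.00981), but had −0.24 without the 4 libraries that differ in muscle RNA (0.701). Clec9a had −0.65 ± 0.37 (edgeR adjusted p = 0.19), passed without 8w off Tx library B (0.0399) and had 0.02 without the 4 libraries that differ in muscle RNA. Batf3 had 0.69 ± 0.39 and Ccr7 −0.14 ± 0.54, with edgeR adjusted p of 0.17 and 0.86.

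The lists around them gave 4 higher and 2 lower of 11 for the Langerhans cell niche, with Itgb6 at 1.27 and Il34 at −0.68 (edgeR adjusted p = 0.02). The Il34 call was lost without 8w off Tx library B (0.0505) or F (0.0536). Maturation and migration gave 6 higher and 1 lower of 14, the lower one again Ackr4 at −1.42 (edgeR adjusted p = 1.8e-06), with Cd274 at 2.04. Ccl17 had 2.54 ± 0.93 (edgeR adjusted p = 0.027), a call lost without 8w off Tx library B or F or Healthy library D or F, with adjusted p up to 0.0821. Of the other Cd209 genes 0 were higher and 4 of 6 lower (median −2.22), with Cd209c at −2.88 and Cd209d at −2.49. The cDC1 list had 1 higher and 4 lower of 10, the higher one Itgae at 1.05, and the cDC2 list 0 higher and 3 lower of 8, with Esam at −0.93 and Irf4 at −0.08, which was not called. Growth factors and receptors had 2 higher and 0 lower of 6, Lta at 2.34 and Ltb at 1.39. Recruiting chemokines and receptors had 3 higher and 0 lower of 7, among them Ccl5 at 2.77. The plasmacytoid list had 3 higher and 1 lower of 7, with Irf7 at 2.52 and Bst2 at 2.55. MHC class II presentation had 1 higher and 1 lower of 10, Ctss at 1.69, lost without 8w off Tx library F (0.0586), and H2-Oa at −1.58. Of the markers of other cells, T cell genes were higher for 3 of 7 and lower for 1, at 33.7 to 100.2 CPM in 8w off Tx libraries against 16.2 to 35.2 CPM in Healthy libraries, endothelium genes were lower for 5 of 6 and fibroblast genes for 4 of 5, and hair shaft genes were higher for 4 of 4. NK cell genes were higher for 1 of the 2 tested. Hair shaft sums were 23.4 and 3.98 CPM in 8w off Tx libraries A and E, the 2 with the most muscle RNA, within the Healthy range of 0.176 to 68.3 CPM, and 659 to 1524 CPM in the other 4. Their part was not tested.

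The 8w off Tx libraries were also compared with AA libraries, and none of the 9 members was called by edgeR, where 1.37% of all genes tested were called. That count over all genes, 118 higher and 104 lower, was 292 and 201 without 8w off Tx library B and 37 and 31 without AA library B, and it moved by more than 1.5 times without AA library A, D, E or F or 8w off Tx library A, D, E or F as well. Without the 4 libraries that differ in muscle RNA it was 44 and 41. Ccr7 and Cd207 had an unadjusted p below 0.05, and DESeq2 called 1 member, Ccr7. Ccr7 was at 0.324, 1.19 and 2.12 CPM in 8w off Tx libraries, against 0.689, 3.89 and 7.65 CPM in AA libraries (log2 fold change −1.66 ± 0.49 SE, edgeR adjusted p = 0.072). It passed without AA library D (adjusted p = 0.0251). Cd207 was at 7.53, 11.3 and 19.4 CPM in 8w off Tx libraries, against 10.9, 17.7 and 20.5 CPM in AA libraries (−0.51 ± 0.21 SE, edgeR adjusted p = 0.20). Cd209a had −0.80 ± 0.42 and Itgax −0.35 ± 0.34, with edgeR adjusted p of 0.30 and 0.62. Among the supporting lists only Ccl22, a chemokine of mature dendritic cells named after its values were seen, was called. It was at 6.66 to 11.7 CPM in 8w off Tx libraries against 10.52 to 29.8 CPM in AA libraries (−1.09 ± 0.25 SE, edgeR adjusted p = 0.032). The Ccl22 call was lost without AA library B or E or 8w off Tx library A, C, D or E, with adjusted p up to 0.0939, and without the 4 libraries that differ in muscle RNA (0.115).

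Between the 2 time points of the treated mice, 8w off Tx was compared with Systemic JAK1i. The test treated the libraries as independent, although by the study's methods both groups are the same mice. Cd207 and Cd209a were lower in 8w off Tx and Itgax and Batf3 higher, so 4 of the 9 were called, where 35.9% of all genes tested were called. The split was 2 higher, where 19.4% of all genes were, and 2 lower, where 16.6% of all genes were. The median of the 9 log2 fold changes was −0.07, against −0.001 over all genes. Cd207 was at 7.53, 11.3 and 19.4 CPM in 8w off Tx libraries, against 22.2, 26.2 and 32.2 CPM in Systemic JAK1i libraries, with no overlap (log2 fold change −1.16 ± 0.21 SE, edgeR adjusted p = 0.00016). Cd209a was at 0.973, 1.96 and 2.88 CPM in 8w off Tx libraries, against 3.47, 5.12 and 7.73 CPM in Systemic JAK1i libraries, again with no overlap (−1.41 ± 0.40 SE, edgeR adjusted p = 0.0064). Both lectins were thus lower 8 weeks after dosing ended.

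Itgax was at 17.7, 36.2 and 78.7 CPM in 8w off Tx libraries, against 11.5, 19.3 and 31.6 CPM in Systemic JAK1i libraries (1.26 ± 0.35 SE, edgeR adjusted p = 0.0077). 8w off Tx libraries A and E lay inside the Systemic JAK1i range. Batf3 was at 0.973, 2.26 and 4.25 CPM in 8w off Tx libraries, against 0.165, 0.907 and 1.65 CPM in Systemic JAK1i libraries (1.20 ± 0.40 SE, edgeR adjusted p = 0.018), a call that was lost without 8w off Tx library F (0.94, adjusted p = 0.0728). Flt3 had −0.58 ± 0.29, Zbtb46 −0.20 ± 0.15, Xcr1 0.24 ± 0.39, Clec9a −0.07 ± 0.38 and Ccr7 0.04, and none passed. Growth factors and receptors gave 4 higher and 0 lower of 6, and recruiting chemokines and receptors 5 higher and 0 lower of 7. Maturation and migration gave 6 higher and 1 lower of 14, and the other Cd209 genes 0 higher and 3 lower of 6. The Langerhans cell niche gave 5 higher and 1 lower of 11 (median 0.43), and MHC class II presentation 2 higher and 1 lower of 10. The cDC1 list had 2 higher and 0 lower of 10, and the cDC2 list 0 higher and 1 lower of 8. In the plasmacytoid list 3 were higher and 1 lower of 7. Fibroblast markers were lower for 5 of 5, at 2335 to 4051 CPM in 8w off Tx libraries against 4794 to 9205 CPM in Systemic JAK1i libraries, and endothelium markers lower for 5 of 6. T cell markers were higher for 6 of 7 and lower for 1, NK cell markers higher for 2 of the 2 tested, monocyte and macrophage markers higher for 4 of 13 and lower for 2, keratinocyte markers higher for 1 of 5 and hair shaft markers higher for 4 of 4. Jchain, the 1 B and plasma cell marker tested, was lower, as was 1 of 6 skeletal muscle markers. The part of these cells was not tested.

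Profiles over the 24 libraries were compared by the root mean square difference of log2 CPM after each gene was set to mean 0 and SD 1, so that a smaller value is a closer likeness. Among the members the closest pair was Cd209a and Flt3 at 0.416, followed by Itgax and Batf3 at 0.657 and Cd209a and Cd207 at 0.699. Among named genes with a mean log2 CPM of at least 1, Cd209a was nearest to its neighbour Cd209c (0.342), then Cadm3 (0.374) and Gpr141b (0.386). Itgax was nearest to Itgb2 (0.244), the integrin chain that pairs with CD11c, then to Icam1 (0.285), a ligand of such integrins, and Ctss (0.291). Flt3 was nearest to Cd209a (0.416), Gfra2 (0.458) and Flrt2 (0.506), and Cd207 to Nbl1 (0.419), Ahrr (0.423) and Pigg (0.449). Xcr1 was nearest to Naaa (0.554), a gene of cDC1, Cdc42se2 (0.566) and H2-Eb1 (0.604), and Clec9a to Btla (0.538), Fgd2 (0.541) and Tlr11 (0.545). Nearest to Zbtb46 were Ncoa7 (0.564), Kctd7 (0.585) and Arsb (0.598). Batf3 had Myo1g (0.581), Map4k1 (0.599) and Lcp2 (0.611), and Ccr7 had Eif1a (0.610), Pop1 (0.634) and Osbpl8 (0.662). These values describe 24 libraries that share 4 groups and carry no test.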

How the data were processed

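Whole dorsal skin was profiled by RNA sequencing in 24 libraries, 6 per group as the labels give them. RNA of low integrity was made into ribosomal RNA depleted stranded libraries without fragmentation and read as paired ends of 76 bases, although the labels also name polyA RNA. The authors aligned reads to mm10 with HISAT2 2.0.1 and counted them per gene with featureCounts 1.4.4, and the deposited counts are raw whole numbers. No source used here states the strand setting or the rule for reads with several matches. The deposited TPM table gives each gene per length and per library total, by a tool that no source used here states. Each table holds 6 columns of no sample of the series, which were left out. Symbols and positions come from GENCODE M21 on GRCm38.

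Counts were filtered with filterByExpr (minimum count 10), scaled by TMM and fitted in R 4.3.3 with edgeR 4.0.16 (glmQLFit, glmQLFTest) in 1 design of 4 groups, with p-values adjusted by Benjamini-Hochberg over 16248 genes and 6 comparisons made. Standard errors come from the same negative binomial fit. Log2 CPM for profiles used a prior count of 2. Depth was 3444193 to 11233020 counts per library, median 5517357, which limits precision for genes with few counts. Libraries of 1 group are separate mice by the study's design.

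Alternatives were RLE scaling, other count filters, the replicate letter as a block, fits of 2 groups only, DESeq2 1.42.0, limma 3.58.1 with voom and quality weights, limma on log2(TPM + 0.1) and log2(TPM + 1), and leaving out each library or the 4 libraries with unusual muscle RNA. TPM centred on each library's median was added after seeing the data. The steps were tested on simulated counts. The members, lists and tests were chosen with earlier results of these data known. Beside the members, the genes named are the 2 with the smallest adjusted p in each list for AA against Healthy and for Systemic JAK1i against Healthy, and the 3 nearest profiles of each member, and 1 gene given by this rule is not reported here. Cd209b, Cd209e, Ccl17, Ccl22, Cd8a, Jchain, Myh1, Ly75, Epcam and Tgfbr2 were named after their values were seen. Figures were drawn with matplotlib 3.10.9.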

Additional observations from a re-analysis of the deposited data

Results flagged for a closer look

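Flt3 in 8w off Tx library D stood apart from the rest of its group, at 6.12 CPM where the other 5 libraries lay between 3.24 and 4.20 CPM. The gap to the nearest library was 0.667 of the range of the group, above Dixon's critical value for 6 libraries. This was 1 of 36 sets of member and group examined, and chance alone marks about 1 set in 20.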

How the results depend on the processing

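The number of members called changed as follows. AA against Healthy had 6, and 2 on each of the 3 settings with TPM that was not centred. Systemic JAK1i against AA had 3, and 5 with limma-voom. Each uncentred TPM setting also gave 3 there, but other members: Cd207 stayed, Itgax and Ccr7 were lost, and Cd209a and Zbtb46 were gained. Systemic JAK1i against Healthy had 2, and 1 with no filter, with a fit of the 2 groups only and on centred TPM, 4 with limma-voom, 0 on each uncentred TPM setting and 0 without the 4 libraries that differ in muscle RNA, and 1 to 3 over the fits without 1 library. 8w off Tx against Healthy had 5, and 3 on centred TPM. 8w off Tx against AA had 0, and 1 with DESeq2, 1 on log2(TPM + 0.1), and 0 to 1 over the fits without 1 library. For 8w off Tx against Systemic JAK1i, each uncentred TPM setting lost Itgax and Batf3 and gained Flt3, Xcr1 and Zbtb46.

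With the replicate letter as a block, Systemic JAK1i against Healthy had 1 member called, and 52 genes higher and 52 lower in place of 83 and 87. Correlations of deviations lay between −0.24 and 0.41 for equal letters. These cannot show whether a letter marks an animal, since the skin samples also differ in hair and muscle RNA. The block changed no other count of members by more than 1.5 times.

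The reported values that changed sign with a call did so on uncentred TPM, where the median of all genes on log2(TPM + 0.1) moved by −0.29, 0.65, 0.34, −0.80, −0.51 and −1.16 in AA against Healthy, Systemic JAK1i against AA, Systemic JAK1i against Healthy, and 8w off Tx against Healthy, AA and Systemic JAK1i. With pseudocounts of 1 and 0.1 in that order, Systemic JAK1i against AA gave Itgb6 0.066 and 0.095, and 8w off Tx against Systemic JAK1i gave Xcr1 −0.54 and −1.13. Itgax was −0.021 there at 0.1, and values at 0.1 were alike with no filter. On log2(TPM + 0.1), 641 genes were higher and 1987 lower in AA than in Healthy, and 329 higher and 11340 lower in 8w off Tx than in Healthy. All-gene calls for Systemic JAK1i against Healthy were 283 higher and 334 lower with DESeq2, 1169 and 862 with limma-voom, and 130 and 156 with 2 groups fitted. For 8w off Tx against AA they were 362 and 251, in place of 118 and 104, with DESeq2, and 8 and 10 with 2 groups fitted. The cause was not tested.

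Of 3057 gene values under alternatives, 2820 kept direction and side of the threshold, counting 73 that were called in neither and changed sign, under TPM settings and others, such as Xcr1 in AA against Healthy at 0.06 without the 4 libraries. Another 159 lost their call, 70 gained one and 8 changed sign with a call. The plan had named every gene in all 6 comparisons, and the values were limited to those reported here after seeing the data. Over the full plan, 66 of 5837 values changed sign with a call, 65 of them on uncentred TPM and 1 on centred TPM. Low counts limit Batf3, Ccr7, Xcr1 and Clec9a, for which a missing call does not show equal levels.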

Other observations

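Set against Ptprc in the same library, the remaining members gave the following medians, as descriptions with no test. The ratio of Flt3 was 0.0471 in 8w off Tx, 0.104 in Systemic JAK1i, 0.0505 in AA and 0.141 in Healthy libraries. The ratio of Zbtb46 was 0.167 in 8w off Tx, 0.273 in Systemic JAK1i, 0.139 in AA and 0.235 in Healthy libraries. For the cDC1 genes, the ratio of Xcr1 was 0.0280 in 8w off Tx, 0.0317 in Systemic JAK1i, 0.0363 in AA and 0.0490 in Healthy libraries, and that of Clec9a was 0.0402 in 8w off Tx, 0.0592 in Systemic JAK1i, 0.0330 in AA and 0.0575 in Healthy libraries. The ratio of Batf3 was 0.0218 in 8w off Tx, 0.0148 in Systemic JAK1i, 0.0141 in AA and 0.0150 in Healthy libraries. The ratio of Ccr7 was 0.0160 in 8w off Tx, 0.0156 in Systemic JAK1i, 0.0384 in AA and 0.0148 in Healthy libraries.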
